A study of Homo sapiens with 6 samples.

Results

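The histone methyltransferases, histone demethylases and PRDM proteins are the enzymes, and the relatives of enzymes, that set and remove methyl groups on histone tails. Members were the genes named alone by a probe set and with a symbol beginning KDM2 to KDM8, KMT2, KMT5, SETD, PRDM, SUV39H, EZH, NSD1 to NSD3, EHMT, SMYD or PRMT, each taken at its brightest probe set. The rule read gene names only, but was written with earlier results of these data known. It gave 73 of the 18132 genes measured. They comprised 33 lysine methyltransferases and SET-domain relatives, 8 arginine methyltransferases, 17 lysine demethylases, 14 PRDM genes and EZHIP, an inhibitor of the EZH2 complex.

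MDA-MB-231 is an established line of mesenchymal type from a human triple-negative breast cancer. SAHA (vorinostat) inhibits the zinc-dependent histone deacetylases. The cells were kept for 8 h with 5 µM SAHA or with the solvent DMSO, and total RNA of 3 samples per group was hybridized to Affymetrix PrimeView arrays. All 6 samples are this 1 cell line at this 1 time, and nothing in the labels says that the samples of a group were separate cultures, so p-values measure a spread that can be technical.

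As background, lysine methyltransferases nearly all carry a SET domain, and each prefers certain lysines: methylation of H3K4 and H3K36 goes with active genes, and that of H3K9, H3K27 and H4K20 with silent or compact chromatin. Demethylases of the KDM2 to KDM8 families carry a JmjC domain and need iron, oxygen and 2-oxoglutarate. PRDM proteins carry a PR domain, a relative of the SET domain, usually with zinc fingers, and only some are known to methylate histones. Several of these enzymes share complexes with the deacetylases that SAHA inhibits.

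The cells expressed VIM, a mesenchymal filament gene, at a log2 value of 14.02 ± 0.02 in SAHA and 13.96 ± 0.01 in DMSO arrays (SD, n = 3 each), and CDH1, an epithelial cadherin, was at 4.17 ± 0.05 and 4.20 ± 0.15. The hormone receptor gene PGR was at 3.38 in SAHA and 3.29 in DMSO arrays, and the leukocyte gene PTPRC at 3.24 and 3.33, on a scale that ran from 2.33 to 14.33. Of the other markers of the line, CD44, EGFR, AXL and CAV1 were all called lower, with EGFR at 7.39 in SAHA and 9.26 in DMSO arrays. ESR1 was at 6.01 in SAHA and 5.98 in DMSO arrays, and the epithelial gene EPCAM, at 7.74 in SAHA and 8.67 in DMSO arrays, was called lower too. So was the receptor gene ERBB2, at 7.16 in SAHA and 7.63 in DMSO arrays. The ACTB control probe sets at the 3' end exceeded those at the 5' end by 0.61 ± 0.06 in SAHA and 0.89 ± 0.16 in DMSO arrays (SD, n = 3 each). The groups were apart, with a two-sided exact permutation p of 0.1, which 3 arrays against 3 cannot go below. For GAPDH the same difference ran the other way, at 0.063 ± 0.020 in SAHA and 0.029 ± 0.019 in DMSO arrays, with the same exact p. Both differences moved with treatment, and their part in the results was not tested beyond one fit: with that of ACTB as a covariate, 10 members were called higher and 24 lower. Over all 18132 genes this fit called 3368 higher and 3169 lower, against 4457 and 4307 without the covariate.

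With SAHA the methyltransferases mostly fell, the demethylases moved both ways, and the PRDM genes held the largest fall. Among the demethylases KDM7A, KDM4B and KDM5B rose most, and KDM3B fell most. In limma's test at an adjusted p under 0.05, 33 of the 73 members fell and 14 rose, and 26 did not pass. Over all genes 48.3% were called, 24.6% higher and 23.8% lower. Among the members 64.4% were called. Members were brighter than the average gene, with a median log2 level of 7.68 against 6.77, and calls depend on level: 10 members had a mean under 5, and limma called 0 of these (1, PRDM14, at an unadjusted p under 0.05), against 11.9% of all genes under 5. With a mean of at least 5, 74.6% of members and 63.3% of all genes were called, and 22.2% and 14.2% at 2-fold or more. The median log2 fold change of the members was -0.19, and that of all genes -0.01.

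At 2-fold or more, 11 members fell and 3 rose, against 4.47% of all genes lower and 5.93% higher at that size (10.4% in either direction). The 3 rises were all demethylases (KDM7A, KDM4B and KDM5B). Of the 11 falls, 8 were methyltransferases, 2 were PRDM genes and 1 was a demethylase. The SAHA and DMSO arrays did not overlap in any of the 47 called members, nor in 5 that were not called. Over all genes 55.5% had groups that did not overlap. The balance of directions depends on scaling. With ribosomal protein genes held level the median of all genes moved up by 0.10, and 20 members were higher and 26 lower. With the poly-A spike-ins held level it moved up by 0.16, and 21 were higher and 23 lower. The 14 members past 2-fold kept their calls in each of 22 alternative settings that kept the gene. In 10 members, all under 2-fold, the call was lost when some single array was left out. These were KDM5C, KDM8, KMT5C, PRDM2, PRDM7, PRDM11, PRMT7, PRMT9, SETD1A and SETD2.

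**Figure D1:**
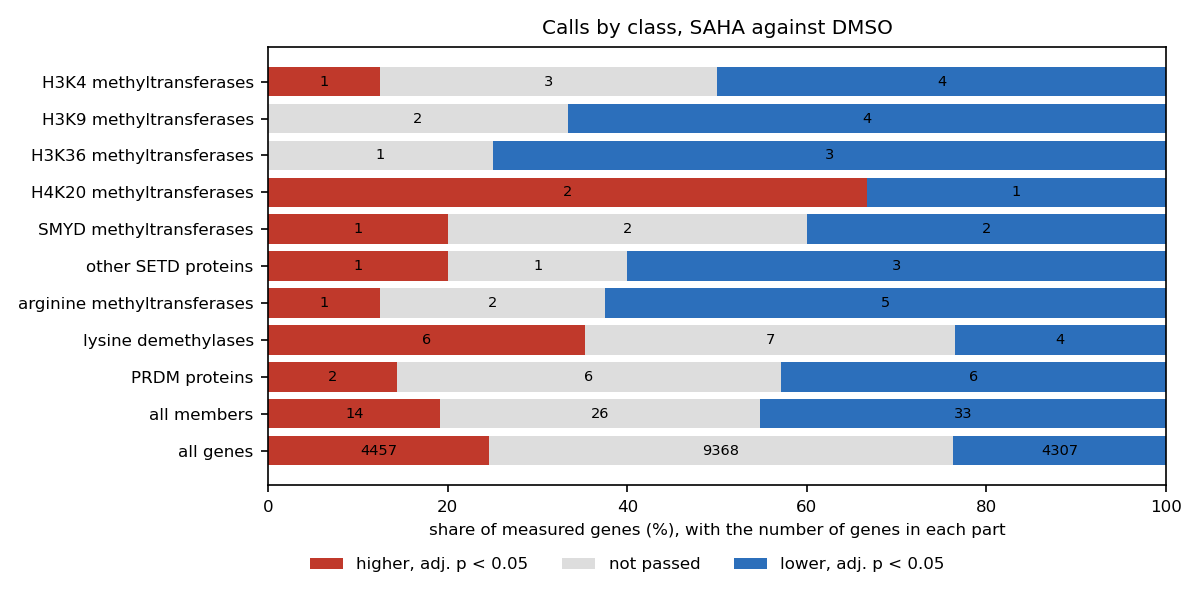
Share of measured genes called higher, not passed or called lower with SAHA, by class (horizontal axis in percent, numbers in the bars are genes), with all 73 members and all 18132 genes in the lowest bars. The classes of EZH1 and EZH2 and of EZHIP are not drawn. The bar of the lysine demethylases holds 6 higher and 4 lower genes, and that of the H3K9 methyltransferases 0 higher and 4 lower.

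The promoters of the largest changes are shown so that genes that rose and genes that fell can be read side by side. The RefSeq promoter table, on build GRCh38.p14, held 67 of the 73 members. SETD1B had no entry, nor did NSD3, KDM4E, PRDM6, PRDM14 and PRDM16. Printed 5′ to 3′ are the 250 bases before the annotated start of the 2 largest rises and the 2 largest falls with an entry. Capitals mark the GC box GGGCGG or its reverse complement CCGCCC, the letters bound by SP1 and its relatives. These are KDM7A (chr7:140176984-140177233, minus strand), KDM4B (chr19:4968863-4969112, plus strand), PRDM8 (chr4:80185020-80185269, plus strand) and PRDM10 (chr11:130002836-130003085, minus strand).
KDM7A: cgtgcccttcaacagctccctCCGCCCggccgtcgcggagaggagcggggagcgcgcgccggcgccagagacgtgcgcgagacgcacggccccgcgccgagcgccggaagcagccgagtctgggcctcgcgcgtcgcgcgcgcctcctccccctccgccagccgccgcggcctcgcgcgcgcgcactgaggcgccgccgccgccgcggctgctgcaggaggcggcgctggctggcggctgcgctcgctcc
KDM4B: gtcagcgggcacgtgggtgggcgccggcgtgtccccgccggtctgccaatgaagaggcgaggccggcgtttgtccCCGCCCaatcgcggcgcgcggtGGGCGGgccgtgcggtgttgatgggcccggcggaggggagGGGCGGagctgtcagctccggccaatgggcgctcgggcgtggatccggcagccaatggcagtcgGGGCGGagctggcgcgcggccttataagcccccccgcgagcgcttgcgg
PRDM8: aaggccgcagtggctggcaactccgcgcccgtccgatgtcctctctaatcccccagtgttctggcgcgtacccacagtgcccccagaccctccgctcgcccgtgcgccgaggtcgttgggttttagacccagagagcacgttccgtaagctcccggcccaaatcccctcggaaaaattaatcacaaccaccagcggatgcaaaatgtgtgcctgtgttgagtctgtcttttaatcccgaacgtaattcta
PRDM10: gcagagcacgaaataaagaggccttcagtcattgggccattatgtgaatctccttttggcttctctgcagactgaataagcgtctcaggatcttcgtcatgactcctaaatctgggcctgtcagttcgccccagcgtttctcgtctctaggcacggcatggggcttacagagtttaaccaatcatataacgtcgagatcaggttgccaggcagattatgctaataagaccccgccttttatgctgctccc
The stretch of KDM7A held 50 CG dinucleotides and 1 GC box, and that of KDM4B 36 and 4. Those of PRDM8 and PRDM10 held 20 and 10 CG dinucleotides and 0 GC boxes each. These 4 do not stand for the rest: over the full 300-base windows the median count of CG dinucleotides was 31 for members that rose, 29 for those that fell and 25 for those that did not pass, and NSD2, a fall, held 63. Over the full 300-base windows and both strands, a GC box stood in 11 of 14 promoters of members that rose (78.6%), in 22 of 32 of members that fell (68.8%) and in 15 of 21 of members that did not pass (71.4%). Among all measured genes with an entry the share was 59.7%, with 74.5% for genes called higher and 65.8% for genes called lower. A match describes these letters only, and which start site the arrays' transcripts used is not given by these data.

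Among the writers of H3K4 methylation, SETD1B and SETD7 fell by the largest amounts. SETD1B, the catalytic subunit of a SETD1 complex, had log2 values of 7.06, 6.91 and 6.88 in the SAHA arrays, against 9.19, 9.36 and 9.24 in the DMSO arrays. Its single probe set fell by 2.31 ± 0.07 on the log2 scale (limma's standard error, n = 3 arrays each, adjusted p = 3.63e-07), a 4.96-fold fall of rank 205 in size among the 18132 genes. SETD7, which adds a single methyl group to H3K4 and also methylates other proteins, stood at 8.73, 8.74 and 8.74 with SAHA, against 10.44, 10.44 and 10.37 with DMSO. It fell by 1.68 ± 0.05 (3.20-fold, limma's adjusted p = 3.20e-07), and a second, dim probe set fell by 1.18 ± 0.16 on the log2 scale.

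KMT2 genes moved by less and in both directions. KMT2C, which acts mainly at enhancers, was at 7.49, 7.39 and 7.64 in SAHA and at 7.01, 7.07 and 6.99 in DMSO arrays. It rose by 0.48 ± 0.07 (limma's adjusted p = 0.000939), and all 5 of its probe sets were called higher, at 0.36 to 0.48. KMT2B, which binds CpG-rich promoters, was at 7.10, 7.19 and 7.13 with SAHA and 7.61, 7.74 and 7.96 with DMSO. It fell by 0.63 ± 0.09 on the log2 scale, while its dimmer probe sets gave -0.26 ± 0.10 and -0.01 ± 0.13 and were not called. SETD1A, the paralog of SETD1B, fell by 0.23 ± 0.07, and 11 of 22 other settings lost that call, with values from -0.24 to -0.15 without DMSO array 2 or any 1 of the SAHA arrays.

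KMT2A (0.16 ± 0.06), KMT2D (-0.32 ± 0.14) and KMT2E (-0.23 ± 0.09) did not pass. Of the 8 probe sets of KMT2A, 3 were called higher over probe sets, where 46.4% of all were called. Of the 9 probe sets of KMT2E, for which no firm H3K4 activity is known, 4 were called lower, at -0.36 to -0.50. The rise of KMT2A was called under 9 of the 22 alternatives. Each centring called it, whether on ribosomal protein genes, poly-A spike-ins or hybridization spike-ins. Its second brightest probe set and the mean of its probe sets did so too.

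Of 6 writers of H3K9 methylation, 4 fell and 0 rose (66.7% called, against 63.3% of all genes with a mean of at least 5). SUV39H1, which trimethylates H3K9 in heterochromatin around centromeres, was at 7.83, 7.66 and 7.58 in SAHA arrays, against 8.96, 9.11 and 8.90 in DMSO arrays. It fell by 1.30 ± 0.09 (limma's adjusted p = 8.77e-06), a 2.47-fold fall, in a probe set shared by similar transcripts. Its other 4 probe sets were all called lower, at -0.39 to -0.99.

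SETDB1, which is brought to transposons by TRIM28 and zinc finger proteins, fell by 0.89 ± 0.07, with 6.74, 6.85 and 6.80 in SAHA and 7.77, 7.69 and 7.59 in DMSO arrays, and its second probe set fell by 0.88 ± 0.12. EHMT1 fell by 0.62 ± 0.07, and its 2 dimmer probe sets, at -0.22 and -0.19, were not called. SUV39H2, the paralog of SUV39H1, fell by 0.37 ± 0.06, and by 0.74 ± 0.08 in its dimmer probe set. EHMT2, the partner of EHMT1 in one complex, was at -0.07 ± 0.07 and SETDB2 at 0.21 ± 0.07 (limma's adjusted p = 0.0509). SETDB2 was the 1 gene of the class that was higher at an unadjusted p under 0.05. Its rise was called under 6 of the 22 alternatives. Holding ribosomal protein genes or poly-A spike-ins level called it, and holding hybridization spike-ins level did not.

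EZH2, the main catalytic subunit of the Polycomb complex PRC2, was at 9.64, 9.67 and 9.75 with SAHA, against 10.44, 10.15 and 10.15 with DMSO. It fell by 0.56 ± 0.09 (1.47-fold, limma's adjusted p = 0.00105), with the groups apart. Its second probe set fell by 0.68 ± 0.08, while the dimmest of its 3 was called higher by 0.69 ± 0.16, and their mean gave -0.18. With the ACTB difference as a covariate its log2 fold change was -0.34, which did not pass. EZH1, its paralog, was at -0.03 ± 0.06 in the brightest of 3 probe sets, none of which was called, and EZHIP was at -0.07 ± 0.09.

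The NSD genes, which add up to 2 methyl groups to H3K36, showed falls in most of their probe sets. NSD2 was at 9.89, 9.77 and 9.84 in SAHA arrays, against 11.15, 11.03 and 11.12 in DMSO arrays. It fell by 1.27 ± 0.06 (2.41-fold, limma's adjusted p = 1.90e-06), and 11 of its 12 probe sets were called lower, at -0.91 to -1.52. The remaining one, dim, was at -0.30 ± 0.11 (limma's adjusted p = 0.0509 over probe sets).

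NSD1 was at 5.84, 6.01 and 5.94 with SAHA and 6.70, 6.63 and 6.78 with DMSO in its brightest probe set, which fell by 0.77 ± 0.07. All 8 of its probe sets were called lower, from -0.42 to -2.70, and 4 of them fell by more than the brightest did. In the second brightest, the mean was 4.88 in SAHA and 7.58 in DMSO arrays, and in a dimmer one 3.77 in SAHA and 6.38 in DMSO arrays. The fold change of NSD1 therefore depends on the probe set more than that of NSD2.

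NSD3 did not pass in its brightest probe set, at 0.11 ± 0.06, and its other 3 probe sets were called lower at -0.51 to -0.74, so no direction can be given for the gene. SETD2, which trimethylates H3K36 in transcribed genes, fell by 0.27 ± 0.07 and by 0.51 ± 0.06 in its second probe set. Its call was not passed after centring on ribosomal protein genes or on poly-A spike-ins.

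The 3 writers of H4K20 methylation split. KMT5A, which adds the single methyl group and is most abundant late in the cell cycle, was at 9.34, 9.27 and 9.24 in SAHA, against 8.86, 8.96 and 8.87 in DMSO arrays, a rise of 0.38 ± 0.06 (limma's adjusted p = 0.000905). All 5 of its probe sets were called higher, at 0.21 to 0.41. KMT5B, which adds further methyl groups, was at 7.20, 7.08 and 7.13 with SAHA and at 7.61, 7.59 and 7.60 with DMSO, and fell by 0.46 ± 0.06.

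All 6 probe sets of KMT5B were called lower. The next brightest 2 fell by 1.81 ± 0.08 and 1.61 ± 0.07, and the others by 0.35 to 0.65. KMT5C, its paralog, rose by 0.31 ± 0.10 (limma's adjusted p = 0.0410), which 11 of 21 other settings did not call, and its dimmer probe set was at 0.04 ± 0.18. Within arrays the difference of KMT5A minus KMT5B, at their brightest probe sets, was larger by 0.85 in SAHA than in DMSO arrays. This value restates the rise and the fall above, and no centring moves it.

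Among SMYD genes, named for a SET domain split by a MYND zinc finger, SMYD5 fell past 2-fold, with 7.13, 6.76 and 7.11 in SAHA and 8.03, 7.98 and 8.05 in DMSO arrays. It fell by 1.02 ± 0.10, and its other probe set fell by 1.04 ± 0.12. SMYD2, which methylates proteins such as p53, fell by 0.85 ± 0.08, with 9.69, 9.60 and 9.67 in SAHA and 10.67, 10.42 and 10.40 in DMSO arrays. SMYD3, which methylates the kinase MAP3K2, rose by 0.61 ± 0.05, with 10.13, 10.03 and 10.09 in SAHA and 9.47, 9.46 and 9.49 in DMSO arrays. Its dimmer probe set was at 0.12 ± 0.08 and not called. SMYD4 (0.14 ± 0.06) and the muscle gene SMYD1 (-0.22 ± 0.12, mean level under 5) did not pass.

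Of the remaining 5 SETD genes 3 fell and 1 rose (80% called, against 63.3% of all genes with a mean of at least 5). SETD6, which methylates the NF-kB subunit RELA, was at 7.59, 7.75 and 7.44 with SAHA and 8.67, 8.72 and 8.78 with DMSO, and fell by 1.13 ± 0.09. All 5 of its probe sets were called lower, and the second brightest, nearly as bright, fell by only 0.23 ± 0.08. SETD9 fell by 0.93 ± 0.09 and SETD5 by 0.67 ± 0.07. SETD3, which methylates a histidine of actin, rose by 0.65 ± 0.07, and 4 of its 6 probe sets were called higher, at 0.46 to 0.65. SETD4 was at 0.05 ± 0.09 and in its other probe set at -0.32 ± 0.08 (limma's adjusted p = 0.00917 over probe sets).

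Of 8 arginine methyltransferases, 5 fell and 1 rose (75% called, against 63.3% of all genes with a mean of at least 5). PRMT3, a cytosolic enzyme that methylates the ribosomal protein RPS2, was at 8.37, 8.39 and 8.39 in SAHA arrays, against 9.59, 9.55 and 9.56 in DMSO arrays. It fell by 1.19 ± 0.05 (2.27-fold, limma's adjusted p = 1.07e-06), and its 3 probe sets lay between -1.19 and -1.23. PRMT6, which methylates arginine 2 of histone H3, was at 8.03, 8.11 and 7.95 in SAHA, against 9.20, 9.21 and 9.24 in DMSO arrays. It fell by 1.19 ± 0.06 (2.28-fold), and its 3 probe sets lay between -1.19 and -1.36.

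The major enzymes of the class moved by little. PRMT1, the source of most asymmetric dimethylarginine, fell by 0.33 ± 0.06 in its bright probe set, and 2 dimmer ones, at 0.07 and -0.11, were not called. PRMT5, the main enzyme of symmetric dimethylation, fell by 0.26 ± 0.05 in a probe set shared by similar transcripts, and PRMT7 by 0.29 ± 0.07 and 0.30 ± 0.07 in its 2 probe sets. PRMT9 rose by 0.32 ± 0.09. It did not pass in 7 of 22 other settings, among them those without DMSO array 1 (0.26), DMSO array 3 (0.28), SAHA array 1 (0.28) or SAHA array 2 (0.31). Centred on poly-A spike-ins, the falls of PRMT1, PRMT5 and PRMT7 did not pass. PRMT8 (0.11 ± 0.09) and PRMT2 (-0.09 ± 0.06) did not pass, while 2 of the 7 probe sets of PRMT2 were called lower.

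**Figure D2:**
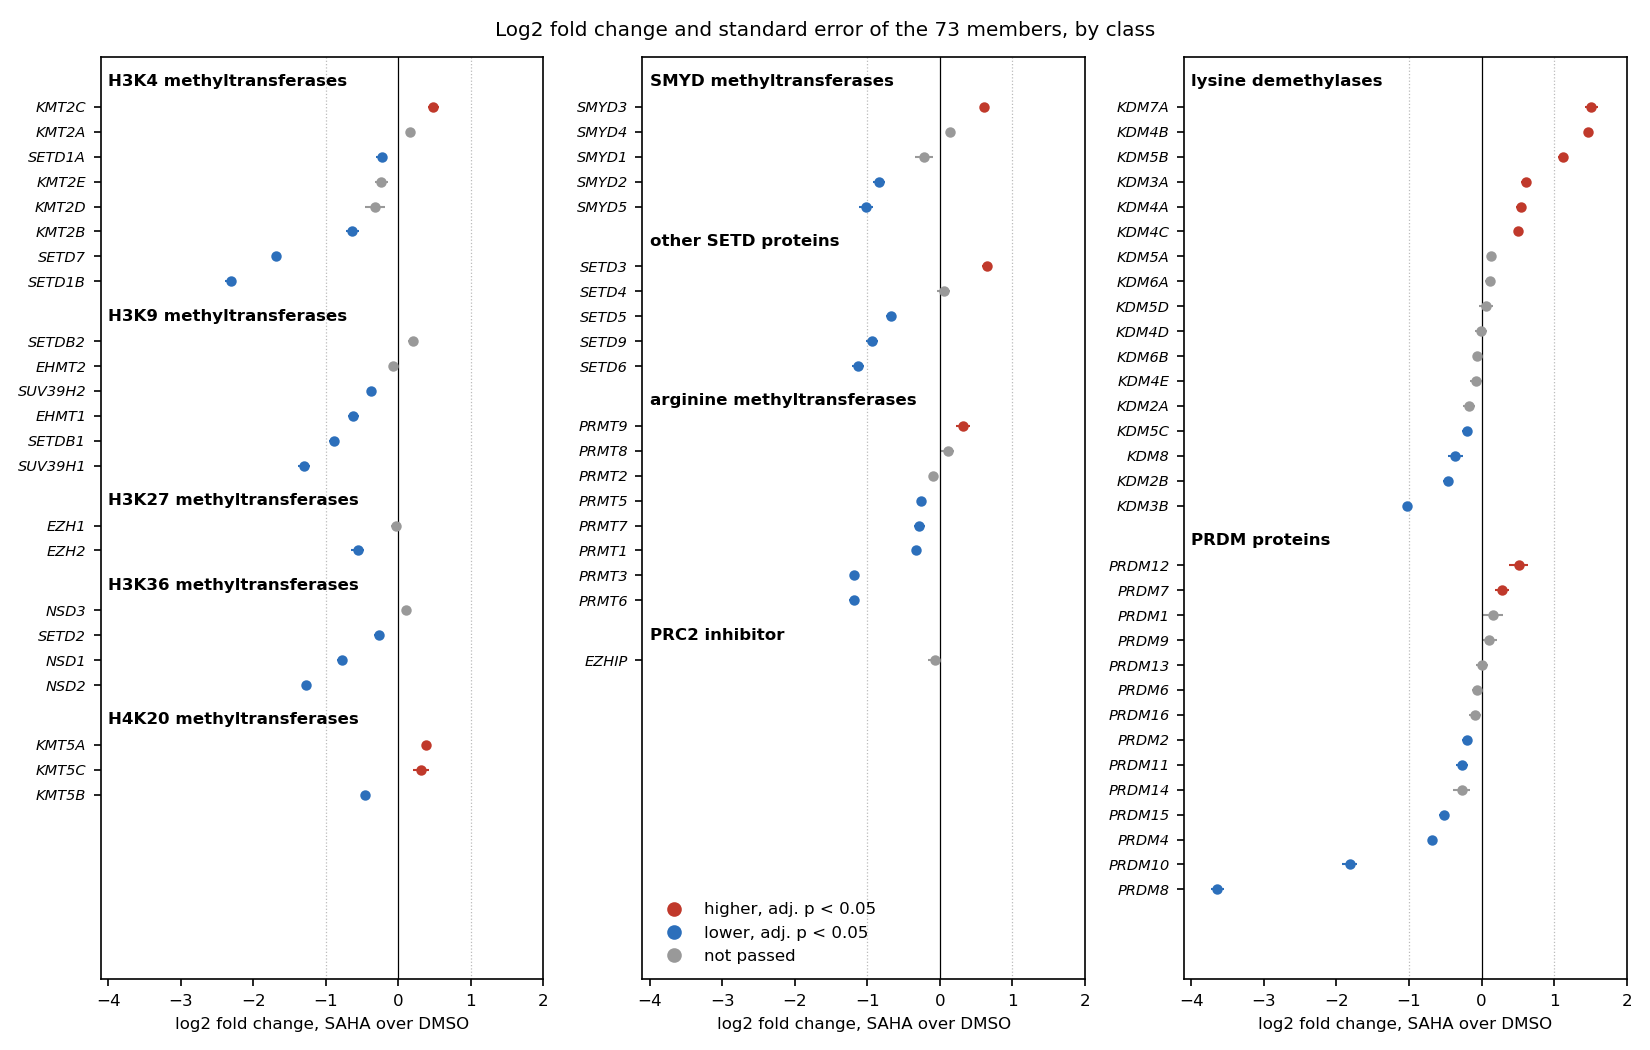
Log2 fold change of SAHA over DMSO (horizontal axis) with limma's standard error for each of the 73 members at its brightest probe set, grouped by class, from 3 arrays per group. Red points were called higher, blue points lower and grey points did not pass, and dotted lines mark 2-fold. PRDM8 stands farthest left at -3.64 and KDM7A farthest right at 1.51 among the members drawn.

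Of 17 lysine demethylases, 6 rose and 4 fell, and their median log2 fold change was 0.06. The share called was 58.8%, against 48.3% of all genes and 63.3% of all genes with a mean of at least 5. KDM7A, which removes methyl groups from H3K9 and H3K27, was at 7.34, 7.28 and 7.39 in SAHA arrays, against 5.63, 5.88 and 5.95 in DMSO arrays. It rose by 1.51 ± 0.09 (2.86-fold, limma's adjusted p = 5.07e-06), and by 0.42 ± 0.11 in its other, dim probe set.

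The KDM4 family removes methyl groups from H3K9 and H3K36, and 3 of its 5 measured genes rose while 0 fell in limma's test, at an unadjusted p under 0.05 too. Over all genes 24.6% were called higher. KDM4B was at 7.68, 7.68 and 7.77 with SAHA and 6.26, 6.22 and 6.25 with DMSO, a rise of 1.47 ± 0.05 (2.77-fold, limma's adjusted p = 6.22e-07). Its second probe set, of nearly the same brightness, rose by 0.50 ± 0.10, and the mean of its 4 probe sets by 0.49, so the size of its rise rests on 1 probe set.

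KDM4A rose by 0.54 ± 0.07 and by 0.66 ± 0.09 in its other probe set, with 7.98, 7.97 and 8.09 in SAHA and 7.45, 7.38 and 7.58 in DMSO arrays. KDM4C rose by 0.50 ± 0.06, and 3 of its 5 probe sets were called higher. The germ cell genes KDM4D, at -0.01 ± 0.08, and KDM4E, at -0.07 ± 0.09, did not pass.

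In the KDM5 family, which removes methyl groups from H3K4, KDM5B rose to 8.32, 8.22 and 8.19 in SAHA arrays, against 7.08, 7.04 and 7.23 in DMSO arrays. Its rise of 1.13 ± 0.07 (2.18-fold) was shared by its next brightest 2 probe sets at 1.16 ± 0.07 and 1.02 ± 0.06. KDM5C fell by 0.19 ± 0.07 (limma's adjusted p = 0.0488), and 15 of 22 other settings did not call it. KDM5A was at 0.14 ± 0.06 and did not pass, and 2 of its 7 probe sets were called higher, at 0.26 and 0.22. KDM5D had a mean level under 5 and did not pass.

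The KDM3 pair, which demethylates H3K9, moved in opposite directions. KDM3A was at 9.35, 9.17 and 9.27 with SAHA and 8.64, 8.63 and 8.69 with DMSO, a rise of 0.61 ± 0.06, and its 3 probe sets were all called higher, at 0.52 to 0.61. KDM3B was at 8.56, 8.51 and 8.50 with SAHA and 9.64, 9.51 and 9.49 with DMSO, and fell by 1.02 ± 0.06 (2.03-fold). Its other probe set fell by 0.97 ± 0.10. Within arrays the difference of KDM3A minus KDM3B was larger by 1.63 in SAHA than in DMSO arrays, which restates that rise and that fall.

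KDM2B, a CpG-binding subunit of a Polycomb complex, fell by 0.47 ± 0.07, and 4 of its 5 probe sets were called lower at -0.31 to -0.50. KDM2A, at -0.18 ± 0.08, did not pass. KDM8 fell by 0.36 ± 0.11, with the call lost in 8 and the sign turned in 1 of 21 other settings. The H3K27 demethylase KDM6A averaged 7.04 ± 0.10 with SAHA and 6.93 ± 0.08 with DMSO (SD, n = 3 each), and the arrays of the groups overlapped. Its difference of 0.11 ± 0.07 did not pass (limma's adjusted p = 0.248). Its paralog KDM6B had a mean level under 5 and was at -0.06 ± 0.06.

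Of 14 PRDM genes 6 fell and 2 rose (57.1% called, against 48.3% of all genes). PRDM8, a PR-domain zinc finger protein best known from the nervous system and retina, was at 5.66, 5.66 and 5.70 in SAHA arrays, against 9.51, 9.28 and 9.16 in DMSO arrays. It fell by 3.64 ± 0.09 on the log2 scale (12.5-fold, limma's adjusted p = 1.97e-07), rank 22 in size among all 18132 genes. The dimmer probe sets fell by 2.45 ± 0.13 and 0.36 ± 0.10 on the log2 scale.

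PRDM10 was at 6.68, 6.41 and 6.41 with SAHA and 8.25, 8.49 and 8.22 with DMSO. It fell by 1.82 ± 0.10 (3.53-fold, limma's adjusted p = 3.85e-06), and by 0.60 ± 0.11 in its dimmer probe set. PRDM4, at 9.03, 9.02 and 8.99 with SAHA and 9.70, 9.70 and 9.72 with DMSO, fell by 0.69 ± 0.05, and by 0.61 ± 0.07 in its other probe set. PRDM15, known for its part in embryonic stem cells, fell by 0.52 ± 0.06 and by 0.47 ± 0.13 in its second probe set. PRDM11 fell by 0.27 ± 0.09, and 9 of 21 other settings did not call it.

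PRDM2, also called RIZ, fell by 0.20 ± 0.07 in its brightest probe set, while the next was at 0.21 ± 0.08 and another was called higher at 0.20 ± 0.06, so its direction depends on the probe set. The sensory neuron gene PRDM12, at 5.69, 5.50 and 5.41 in SAHA and 4.80, 5.28 and 4.99 in DMSO arrays, rose by 0.51 ± 0.13. Its single probe set was dim, with a mean of 5.28 over all arrays, and 3 of 21 other settings did not call it. PRDM7, the close paralog of PRDM9, rose by 0.28 ± 0.10, with the call lost in 13 and the sign turned in 1 of 21 other settings. PRDM16, of brown fat, was at -0.09 ± 0.09. PRDM1, of plasma cells, was at 0.16 ± 0.14, and the meiotic gene PRDM9 at 0.11 ± 0.10. PRDM6 (-0.06 ± 0.07), PRDM13 (0.01 ± 0.08) and the germ cell gene PRDM14 (-0.27 ± 0.12) had mean levels under 5 and did not pass.

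**Figure D3:**
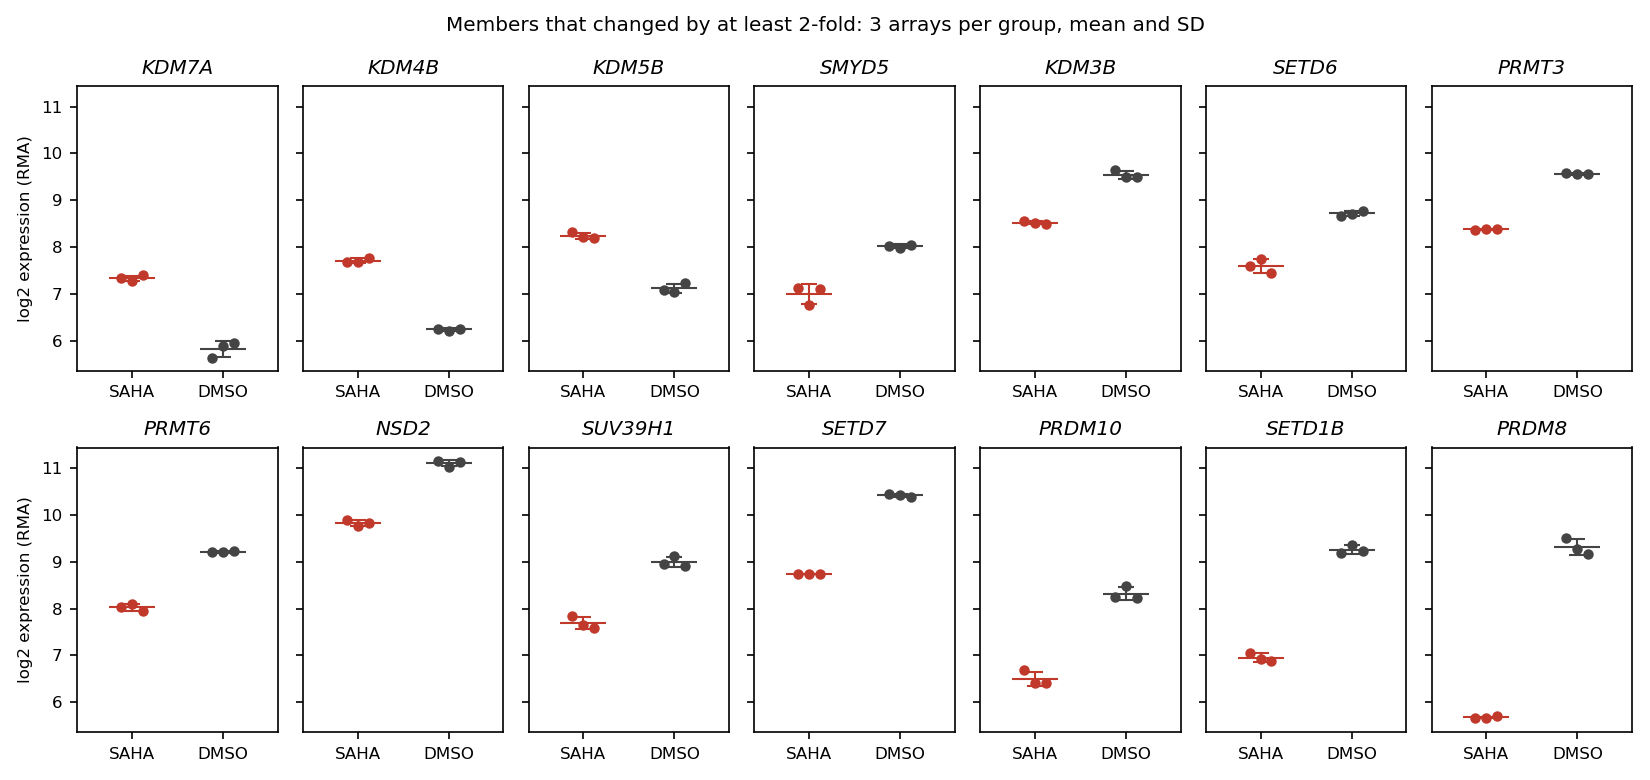
Log2 expression (RMA, vertical axis) of the 14 members that changed by at least 2-fold, with 3 SAHA arrays (red) left of 3 DMSO arrays (dark grey) and a bar for the mean with its SD. The panels run from the largest rise, KDM7A, to the largest fall, PRDM8, and the groups do not overlap in any of them.

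The size of a change depended on the probe set in several members. Of the 59 members with more than 1 probe set, only EZH2 and PRDM2 had probe sets called in both directions. Of all 233 probe sets of members, 97 were called lower and 42 higher. Whether probe sets of a gene that differ report different transcripts was not tested.

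**Figure D4:**
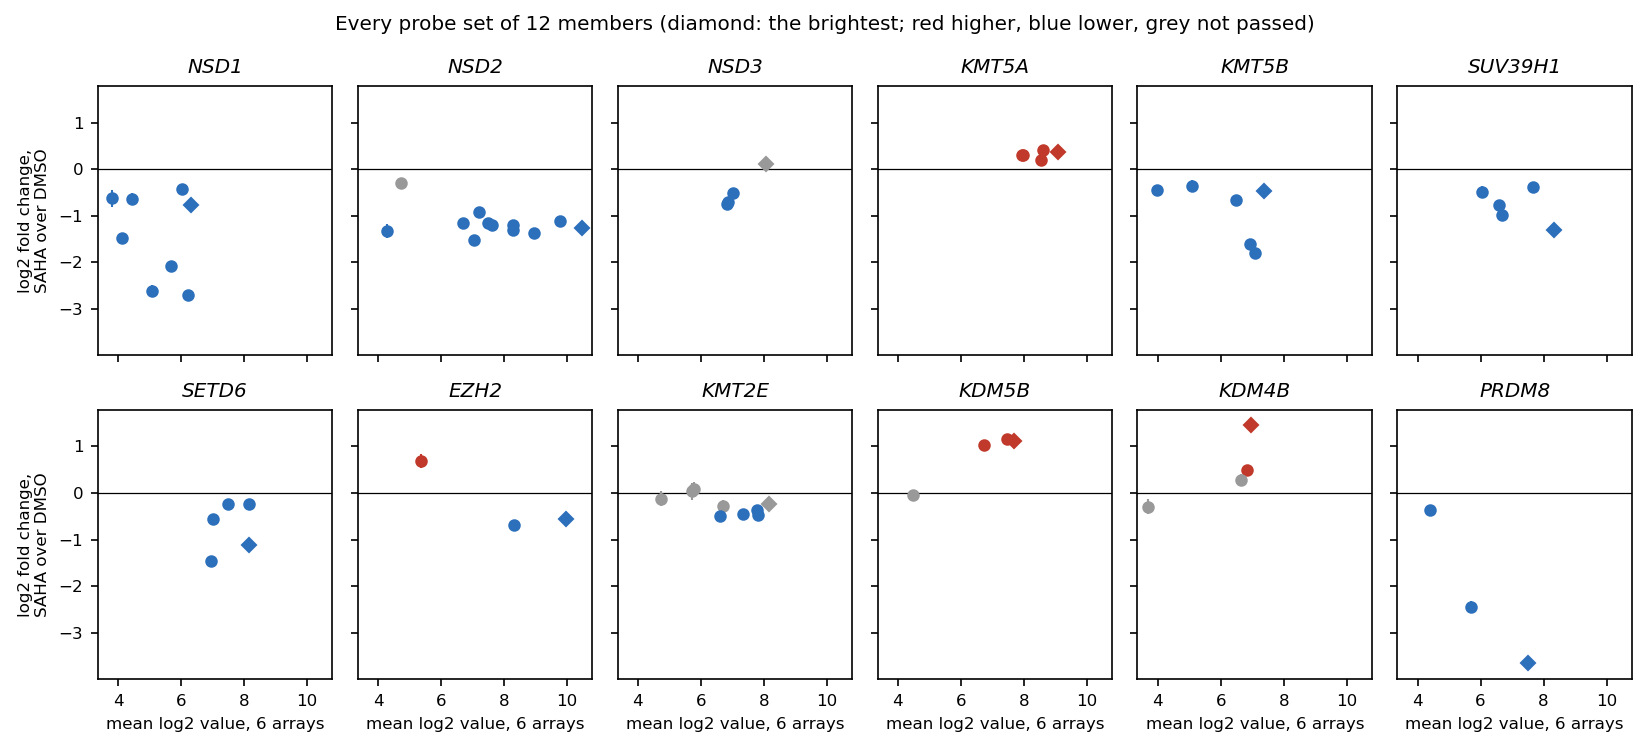
Log2 fold change of SAHA over DMSO (vertical axis, with limma's standard error over probe sets) against the mean log2 value over 6 arrays (horizontal axis) for every probe set of 12 members, chosen after their values were seen to show both agreement and spread. The brightest probe set is a diamond. NSD1 spreads from -0.42 to -2.70, the 5 probe sets of KMT5A lie between 0.21 and 0.41, and EZH2 and NSD3 hold a probe set that departs from the others.

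Partners of these enzymes, from lists written from general knowledge, moved in both directions too. Their lists had median log2 levels of 8.97 to 10.7, and of all genes with a mean of at least 9, 74.7% were called. Of 10 PRC2 partners, 2 rose and 5 fell (median log2 fold change -0.20). JARID2, which helps place PRC2 on chromatin, rose by 1.22 ± 0.05 and the accessory subunit PHF1 by 1.02 ± 0.06. The accessory subunit PHF19 fell by 1.31 ± 0.06, and its second probe set fell by 2.35 ± 0.08. AEBP2, another accessory subunit, fell by 0.60 ± 0.12. The core subunits EED and SUZ12 fell by 0.42 ± 0.05 and 0.24 ± 0.07.

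Of 12 partners of the KMT2 and SETD1 enzymes, 4 rose and 6 fell (median -0.21). HCFC1, a scaffold of SETD1 and other complexes, fell by 1.93 ± 0.06 in its brightest probe set, with -0.20 to -0.42 in 3 dim ones. PAGR1, a partner of KMT2C and KMT2D, fell by 1.47 ± 0.08, and by 0.66 ± 0.08 in its dimmer probe set. RBBP5, a core subunit of these complexes, rose by 0.85 ± 0.06, and MEN1, which encodes menin, by 0.33 ± 0.07.

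Of 11 partners and readers of the H3K9 enzymes, 2 rose and 7 fell (median -0.35). TASOR, of the HUSH silencing complex, fell by 0.81 ± 0.06 and WIZ, a partner of EHMT1 and EHMT2, by 0.80 ± 0.07. The HUSH subunits MPHOSPH8 and PPHLN1 rose by 0.72 ± 0.06 and 0.19 ± 0.05. Of 4 partners of PRMT5, 3 fell and 0 rose in limma's test, at an unadjusted p under 0.05 too, among them RIOK1 by 0.57 ± 0.06 and WDR77, its obligate cofactor, by 0.53 ± 0.05.

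Of 13 other methyltransferases and demethylases measured, 2 rose and 10 fell (median -0.50). KDM1B, a flavin-dependent H3K4 demethylase, rose by 1.40 ± 0.06, and by 0.42 ± 0.06 in its dimmer probe set. Its paralog KDM1A, the partner of the deacetylases HDAC1 and HDAC2 in the CoREST complex, rose by 0.25 ± 0.05. PHF2, a relative of KDM7A, fell by 2.14 ± 0.05 in its brightest probe set and by 2.18 ± 0.08 in the next, with -0.28 to -0.50 in the dimmer ones. MECOM, which belongs to the PRDM family without a PRDM symbol, fell by 1.53 ± 0.07.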

How the data were processed

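Total RNA of 6 samples was amplified by 3' in vitro transcription, labelled with biotin and hybridized to PrimeView arrays, per the labels' protocols. The authors deposited log2 values for each probe set, made with RMA per the submitters' processing notes, which name no version of it. RMA gives all arrays nearly the same distribution, and a common rise or fall of most transcripts is lost in it. Groups and replicate numbers came from the labels.

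Genes were named by the platform annotation. All 233 probe sets of members matched a RefSeq gene (GRCh38.p14) with the same symbol. Of the probe sets naming a gene alone, the one brightest on average over all 6 arrays stood for it. Those called shared by similar transcripts are the _x_at and _s_at types. SAHA minus DMSO was fitted with limma 3.58.1 (lmFit, eBayes, R 4.3.3) without covariates. Two-sided p-values were adjusted by Benjamini-Hochberg over all 18132 genes or, for single probe sets, over 49293 of them, with a threshold of 0.05. Values are log2 fold changes with the moderated standard error. The fit was tested on simulated data of 18132 genes, with 50 changed at each size. It recovered 98% of the 50 changed by 2-fold and 10% of the 50 changed by 1.2-fold, with 7 false calls. These shares hold for that setting only. In the arrays 48.3% of all genes were called, and the share recovered there was not tested. The number of arrays limits the precision.

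Members, classes and lists were chosen with earlier results of these data known, so they are described by counts and medians beside those of all genes. The class of EZHIP was added after its values were seen. By rule, values per array were given for members past 2-fold and for the largest change and the best known members of each class, and the 2 largest called changes in each direction were named from each partner list. Other members with values per array, and EED and SUZ12, were chosen after their values were seen. Alternatives were the replicate block, other probe sets of a gene, filters on level, other scalings, moderation, array weights, a covariate, thresholds and leaving out each array. Deviations of samples with the same number correlated at -0.126, -0.0705 and -0.0406, so no shared deviation by number was seen. Such values cannot tell whether samples of the same number were handled together.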

Additional observations from a re-analysis of the deposited data

Results flagged for a closer look

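Of the 6 probe sets that name a member together with other genes, and so were left out of the counts, 2 were higher in SAHA than in DMSO arrays in limma's test over probe sets. Both name KMT2C with BAGE genes. One of 3 naming KMT2C, BAGE5 and BAGE2 was at 0.28 ± 0.07 (adjusted p = 0.0140), and the one naming KMT2C, BAGE2 and further loci at 0.44 ± 0.12 (adjusted p = 0.0177), beside 0.36 to 0.48 in the probe sets of KMT2C alone.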

How the results depend on the processing

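Of the 47 called members, 27 kept their call in each of 22 other settings that kept the gene. The other 20 lost it in at least 1. Of those that had not passed, 13 did so in at least 1 setting with the sign kept, and SETD4 did so only with the sign turned. The replicate block gave 14 members higher and 30 lower, and 4214 genes higher and 4077 lower over the series. With limma's treat at 1.2-fold, 9 members and 2759 genes were higher and 23 members and 2531 genes lower, a setting that asks for a minimum size. With poly-A spike-ins held level, 5879 genes were higher and 2690 lower, and with ribosomal protein genes held level 5803 and 3456. Leaving out each array in turn gave 11 to 14 members higher and 28 to 33 lower. The sign of a log2 fold change turned in at least 1 setting for 18 members. Where the value was called on either side, this came only with other probe sets of the gene: the second brightest probe set gave KDM8 0.072, NSD3 -0.51, PRDM2 0.21, PRDM7 -0.081, PRMT1 0.070 and SETD4 -0.32, and the mean over probe sets gave NSD3 -0.46 and PRDM2 0.10. The cause was not tested.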
